A study of Mus musculus with 40 samples.

Results

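The comparison described here asked which cortical transcripts differed between impacted mice that had received memantine and impacted mice that had received saline. Its members were the 20 libraries labelled Memantine + HF-HI or Saline + HF-HI, of 40 libraries in the series, with 10 libraries in each of the groups compared. HF-HI is high-frequency head impact, a series of mild impacts to the head given over several days. All mice were male C57BL/6 animals aged 12 weeks, and total RNA was taken from the cortex 24 h after the last session. Memantine or saline was injected 1 h before each session, so the drug was present before and during the impacts. The remaining 20 libraries came from sham mice that received the same injections, handling and anesthesia without impacts, 10 with saline and 10 with memantine, and they entered the fit to share its estimate of the spread. The design text of the series gives 4 samples per group, and the 10 per group of the labels and the table were used. The labels gave no sequencing batch and did not say whether mice shared a litter or cage, so the p-values measure the spread between these samples.

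Memantine blocks the open channel of NMDA-type glutamate receptors, which admit calcium when glutamate is bound and the membrane is depolarised. Calcium entering through these receptors drives kinase cascades in neurons, the MAP kinase cascade among them, and these switch on immediate early genes within minutes to hours of activity. The first of these genes encode transcription factors of the EGR, AP-1 and NR4A families. Others encode effectors that act at synapses, such as Arc and Nptx2, or that feed back on the kinase cascade, such as Dusp6 and Spry2. The activity-induced genes, the glutamate receptors and the synaptic genes are therefore described first, after the counts over all transcripts.

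The table held 6831 abundant RefSeq transcripts of 5875 genes or unnamed loci. The summed counts of the 20 libraries ran from 13825466 to 17529644, and for the transcript with the lowest mean, 549.2 normalised counts, counting error by itself amounted to 4.27% of the count. Markers of cortical layers were checked against the tissue label, and 12 of the 18 listed genes were in the table, among them Tbr1 and Cux2. Their summed level ran from 18012 to 20157 normalised counts in saline HF-HI and from 17716 to 20477 in memantine HF-HI. In bulk tissue, fewer cells of a type and less RNA per cell cannot be told apart.

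Differences between the impacted groups were few and small. At an unadjusted limma p-value below 0.05, 267 of 6831 transcripts passed (3.91%), where chance alone gives 342. Of these, 104 were higher with memantine (1.52% of the table) and 163 were lower (2.39%). At an unadjusted p-value under 0.01 there were 42 (0.615%). None passed a Benjamini-Hochberg adjusted limma p-value of 0.1, for which the smallest value was 0.933, so each transcript named below is a single value that did not pass the adjustment over the table. The groups of 10 libraries overlapped for every transcript, with 0 of 6831 separating them.

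The size of the differences was limited as well as their number. Among the 267 transcripts the median size of the log2 ratio of mean counts was 0.14, and 134 of them differed by less than 10%. All 10 memantine HF-HI libraries were below the saline HF-HI mean for 38 of the 163 lower transcripts, and all 10 were above it for 18 of the 104 higher ones. These transcripts were selected by the same difference, and the share over all transcripts was not counted. Such positions of libraries, here and below, are therefore a description only. The 95% interval of a transcript's difference had a median half-width of 0.10 on the log2 count scale, which is 1.07-fold, and at the 90th percentile of transcripts it was 0.43, or 1.35-fold. When counts were summed over the transcripts of each gene, 216 of 5875 sums passed the unadjusted threshold (3.68%), 84 higher (1.43%) and 132 lower (2.25%), and 0 passed the adjusted one in limma.

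**Figure D1:**
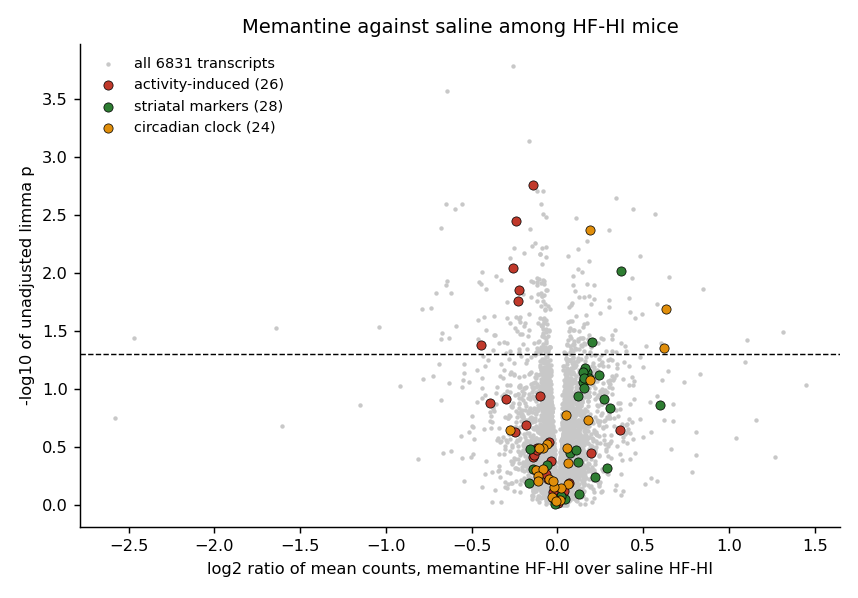
Each point is 1 of the 6831 transcripts, with the log2 ratio of mean normalised counts on the x axis (memantine HF-HI over saline HF-HI) and -log10 of the unadjusted limma p-value on the y axis. The dashed line marks p = 0.05, and coloured points show 26 activity-induced, 28 striatal marker and 24 circadian clock transcripts, with 6 activity-induced ones above the line on the left.

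Activity-induced transcripts were lower with memantine among the impacted mice. The list held 48 genes, of which 21 were in the table with 26 transcripts, and 22 of the 26 were lower in memantine HF-HI, against 49.8% of all transcripts. Of the 26, 6 passed the unadjusted threshold as lower and 0 as higher, against 2.39% and 1.52% of the table. The 6 were Nr4a1, Klf10, Spry2, Dusp6, Nptx2 and Pcsk1. The median log2 ratio of the 26 was -0.12, where the median over all transcripts was 0.00. That immediate early genes were lower in these libraries was known when the list was written, so the counts are a description and not independent evidence of the direction.

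The transcription factors of the list were all on the lower side. All 7 transcripts in the table, from 20 listed genes, were lower, with a median log2 ratio of -0.18 and a range from -0.44 to -0.05, and 2 of them passed. Nr4a1 encodes an orphan nuclear receptor induced by neuronal activity. Its normalised counts ran from 370 through a median of 1232 to 1437 in saline HF-HI, and from 322 through 890.3 to 1165 in memantine HF-HI. In 8 of 10 saline HF-HI libraries the count was above the highest memantine HF-HI library, and each group had 1 library far below its other 9. The mean fell by 26.5%, from 1187 ± 302 to 873 ± 243 (SD, n = 10 each), and the difference had p = 0.0417 in limma, unadjusted, and 0.0458 in the permutation test. This call rested on single libraries. It was lost in the fits that left out any of saline HF-HI replicates 2 to 9 or memantine HF-HI replicate 1, 4 or 5, in which the p-value reached 0.116, and on the scale of log2(count + 1) it was 0.0766.

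Klf10 encodes a zinc finger transcription factor of the Krüppel-like family that is induced early by growth factors. Its counts in saline HF-HI had a minimum of 549, a median of 641 and a maximum of 884, and in memantine HF-HI a minimum of 460.2, a median of 551 and a maximum of 637. The highest value came from saline HF-HI replicate 5, and 5 memantine HF-HI libraries were below the lowest saline one. The mean fell by 15.5% (95% interval from -24.1% to -5.44% on the log2 count scale), from 647 ± 93.1 to 547 ± 64.0 (SD, n = 10 each), with p = 0.00359 in limma and 0.00486 in the permutation test. The call held in each of the 20 fits that left out 1 HF-HI library.

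The other transcription factors were lower without passing. Junb, a subunit of the AP-1 complex, averaged 866 ± 245 counts in saline HF-HI and 705 ± 146 in memantine HF-HI (SD, n = 10 each, limma p = 0.124, permutation p = 0.136). Egr1, a zinc finger factor widely used as a marker of neuronal activity, averaged 2749 ± 577 and 2485 ± 625.0 (limma p = 0.387, permutation p = 0.377). Fosl2, Nr4a3 and Egr3 had log2 ratios of -0.18, -0.14 and -0.05, with limma p-values of 0.207, 0.375 and 0.602. Leaving out saline HF-HI replicate 1, the lowest library of its group for both Junb and Egr1, brought the Junb p-value to 0.0177.

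Of the effectors, 19 transcripts of 14 genes were in the table from 28 listed, 15 were lower, and 4 passed as lower. Dusp6 and Spry2 both restrain the ERK branch of the MAP kinase cascade, the first as a phosphatase of ERK and the second upstream of it. Dusp6 counts had a minimum of 942, a median of 1460 and a maximum of 1702 in saline HF-HI, and 825, 1226 and 1416 in memantine HF-HI. The mean fell by 14.8% (95% interval from -25.8% to -2.31%), from 1415 ± 198 to 1206 ± 178 (SD, n = 10 each, limma p = 0.0176, permutation p = 0.0299), and p was 0.0534 without memantine HF-HI replicate 1. In 6 saline HF-HI libraries the count was above the highest memantine HF-HI library.

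Spry2 counts were tighter. They ran from 758 to 945 in saline HF-HI with a median of 884, and from 695 to 840 in memantine HF-HI with a median of 792, so that 8 saline HF-HI libraries were above every memantine HF-HI library. The mean fell by 9.59% (95% interval from -14.8% to -3.85%), from 868 ± 64.5 to 785 ± 43.6 (SD, n = 10 each, limma p = 0.00176, permutation p = 0.00438). All 10 memantine HF-HI libraries were below the saline HF-HI mean. The call held without any single HF-HI library, with p from 0.000339 to 0.00544.

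Nptx2 and Pcsk1 act outside the kinase cascade. Nptx2 encodes a secreted pentraxin that gathers AMPA receptors at synapses, and Pcsk1 encodes a protease that cuts prohormones into neuropeptides. Nptx2 counts ran from 477.5 to 789 with a median of 605 in saline HF-HI and from 363 to 609 with a median of 525.8 in memantine HF-HI. Their mean fell by 16.5% (95% interval from -26.7% to -5.07%), from 611 ± 84.7 to 510.2 ± 70.1 (SD, n = 10 each, limma p = 0.00902, permutation p = 0.00692). Both groups were below the saline sham mean of 689.9, and Nptx2 was thus the exception among the 6, of which the other 5 had their highest group mean in saline HF-HI. Pcsk1 counts ran from 913 to 1272 with a median of 1079 and from 797.5 to 1140 with a median of 943. The mean fell by 14.4%, from 1103 ± 122 to 944 ± 103 (SD, n = 10 each, limma p = 0.0139, permutation p = 0.0067), and the call was lost with the mean of striatal markers as a covariate (p = 0.0657).

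Arc, whose protein drives removal of AMPA receptors from the synapse, had 2 transcripts in the table and neither passed. The more abundant one, NM_018790, ran from 978 through a median of 3438 to 4292 in saline HF-HI and from 929.9 through 2467 to 3176 in memantine HF-HI. In 8 saline HF-HI libraries it was above the highest memantine HF-HI library and all 10 memantine libraries were below the saline mean, yet p was 0.131 in limma and 0.0929 in the permutation test. In each group 1 library was far below the rest. Without saline HF-HI replicate 1, the low saline library, limma gave p = 0.0253, and without each of the other 19 HF-HI libraries in turn it did not pass, with p up to 0.289. With the low library of both groups left out, NM_018790 did not pass either. NM_001276684 averaged 1605 ± 360 and 1352 ± 327 (SD, n = 10 each, limma p = 0.237). Ier5, another immediate early gene, averaged 1261 ± 114 and 1177 ± 125 (limma p = 0.116). The remaining effectors, among them Plk2, Rgs2, Tiparp, Vgf and 4 Homer1 transcripts, had limma p-values of 0.226 or more. Of the 4 effector transcripts that were higher, the Homer1 form NM_001347598 had the largest log2 ratio, 0.36 (p = 0.226).

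**Figure D2:**
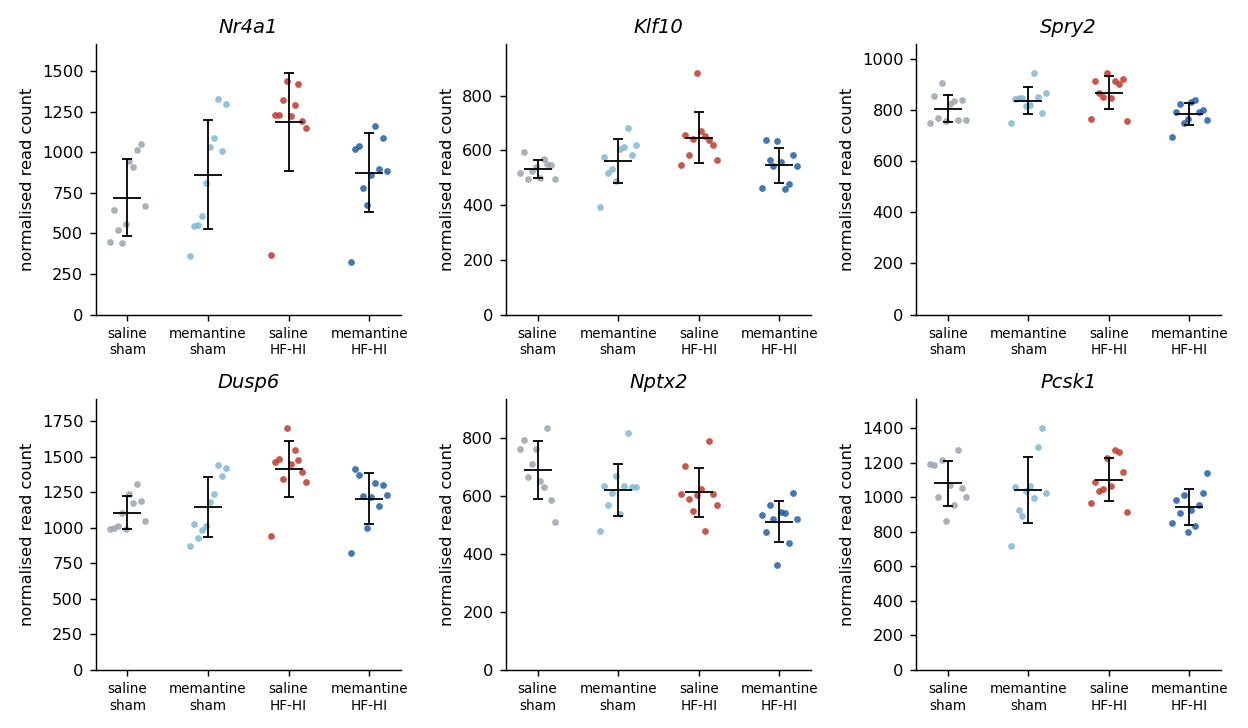
Normalised read counts of the 6 activity-induced transcripts that passed the unadjusted threshold are plotted for each library (points) in the 4 groups, with the mean and SD as bars (n = 10 per group) and y axes starting at 0. For Nr4a1, 1 library of each HF-HI group lies at 370 or 322, far below its other 9, and the HF-HI groups overlap in every panel.

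The same transcripts were then placed beside the sham groups. Contrasts that share the saline HF-HI libraries are not independent of one another, so the values are given side by side. The median log2 ratio of the 26 activity-induced transcripts was 0.09 for saline HF-HI over saline sham, 0.02 for memantine sham over saline sham, and -0.03 for memantine HF-HI over memantine sham. Of the 26, 9 passed as higher in saline HF-HI over saline sham, where 4.58% of the table did, and in memantine HF-HI over memantine sham 0 passed as higher and 2 as lower, where 2.39% and 2.23% of the table did. Saline HF-HI had the highest of the 4 group means for 15 of the 26, against 26.7% of all transcripts. Nr4a1 averaged 720 in saline sham, 863 in memantine sham, 1187 in saline HF-HI and 873 in memantine HF-HI. For Klf10 the means in that order were 533, 561, 647 and 547, and for Junb they were 528, 626, 866 and 705. The sham libraries varied with replicate number. In saline sham, Nr4a1 counts were 439 to 641 in replicates 1 to 5, 908 to 1054 in 6 to 9 and 668 in 10. In memantine sham they were 360 to 813 in replicates 1 to 5 and 1008 to 1331 in 6 to 10. Arc NM_018790 and Egr1 varied likewise, so the sham means, and the tests that use them, mix low and high libraries. The cause was not tested.

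Whether the drug difference itself differed between impacted and sham mice was tested as an interaction. Across all transcripts, 255 had an unadjusted interaction p-value under 0.05 (3.73%) and 0 passed the adjusted threshold, with a smallest adjusted limma p-value of 0.999. Of the 26 activity-induced transcripts, 5 had an unadjusted interaction p-value under 0.05. Spry2 (p = 0.00221), Klf10 (p = 0.00821), Nr4a1 (p = 0.0332) and Dusp6 (p = 0.0465) were among the 6 named for their difference in the impacted mice, a choice that also favours a small interaction p-value. The fifth was a Homer1 transcript, NM_001284189, which was lower with memantine in the sham mice. For Nptx2 and Pcsk1 the interaction p-values were 0.476 and 0.193.

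Promoter sequences were sought for the 6 genes. A number of activity-induced genes are known to carry cyclic AMP response elements (CRE), to which the activity-regulated factor CREB binds. Windows of 250 bases before the start site were taken from RefSeq (GRCm38.p6), in which Nr4a1, Pcsk1, Dusp6 and Spry2 had an entry. Both strands were searched for the CRE half-site TGACG, the full CRE TGACGTCA, which contains a half-site on each strand, the AP-1 site TGANTCA, the EGR site GCGTGGGCG and the CArG box of serum response factor. The half-site was in 17.8% of 32851 windows of the same length, the full CRE in 1.55%, the AP-1 site in 6.75%, the EGR site in 0.536% and the CArG box in 1.47%. Only the 2 windows that held a match are printed. The window of Nr4a1 lies at chr15:101266596-101266845 on the plus strand and that of Pcsk1 at chr13:75089607-75089856 on the plus strand. The start site used for Pcsk1 was 31 bases from that of NM_013628 in the GENCODE annotation. Capitals mark the half-sites and the full CRE.
Nr4a1: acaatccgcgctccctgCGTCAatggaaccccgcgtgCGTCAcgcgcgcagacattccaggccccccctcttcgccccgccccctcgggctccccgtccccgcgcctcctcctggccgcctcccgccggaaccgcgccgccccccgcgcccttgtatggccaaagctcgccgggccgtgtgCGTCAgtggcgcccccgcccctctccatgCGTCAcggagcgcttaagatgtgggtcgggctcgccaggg
Pcsk1: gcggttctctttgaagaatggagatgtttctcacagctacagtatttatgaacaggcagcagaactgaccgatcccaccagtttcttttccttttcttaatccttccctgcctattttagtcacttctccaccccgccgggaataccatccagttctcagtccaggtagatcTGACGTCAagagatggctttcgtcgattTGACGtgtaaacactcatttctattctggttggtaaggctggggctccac
Nr4a1 held 4 half-sites, each on the opposite strand, starting 233, 213, 69 and 40 bases before the start site. Pcsk1 held the full CRE 78 bases before its start site and a further half-site at 50 bases. In the windows of Dusp6 and Spry2 none of these letters occurred, and the AP-1, EGR and CArG motifs occurred in 0 of the 4 windows. A match of letters is a description and not a binding site.

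Markers of the striatum, which lies under the cortex and can be included in a cortical dissection, lay mostly on the higher side, opposite to the activity-induced list. Of 27 listed genes, 18 were in the table with 28 transcripts, of which 22 were higher in memantine HF-HI, against 50.2% of all transcripts, and several of the genes, such as Ptpn5 and Arpp21, are also used by cortical neurons. The median log2 ratio was 0.15, and it was -0.20 for saline HF-HI over saline sham, a contrast that shares the saline HF-HI libraries, and -0.02 for memantine sham over saline sham. Only Gng7, a G protein subunit, and Ppp1r1b, the dopamine-regulated phosphatase inhibitor DARPP-32, passed as higher, against 1.52% of the table. Gng7 averaged 1625 in saline HF-HI and 2097 in memantine HF-HI (limma p = 0.00972), and Ppp1r1b 2863 and 3296 (p = 0.0393). Summed over the 28 transcripts, the level ran from 52098 to 64497 counts in saline HF-HI and from 49318 to 72118 in memantine HF-HI, beside 51681 to 79195 in saline sham.

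With the mean of the striatal markers as a covariate, 3 activity-induced transcripts passed as lower (Klf10, Nptx2 and Spry2) in place of 6, 21 of the 26 were lower, and the median difference on the deposited log2 scale was -0.03 in place of -0.05. On that scale the difference of Nr4a1 went from -0.18 to -0.13 (limma p = 0.122), that of Dusp6 from -0.10 to -0.08 (p = 0.0692) and that of Pcsk1 from -0.09 to -0.06 (p = 0.0657). Over all transcripts 235 passed the unadjusted threshold with the covariate, where 267 did without it. In the fit on the 20 HF-HI libraries alone 7 striatal transcripts passed as higher, and without memantine HF-HI replicate 2, the library lowest in these markers, 11 did. The pair of libraries numbered 1, lowest in several immediate early genes, was also left out together, a choice made after the data had been seen. Then 7 activity-induced transcripts passed as lower and 7 striatal ones as higher.

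**Figure D3:**
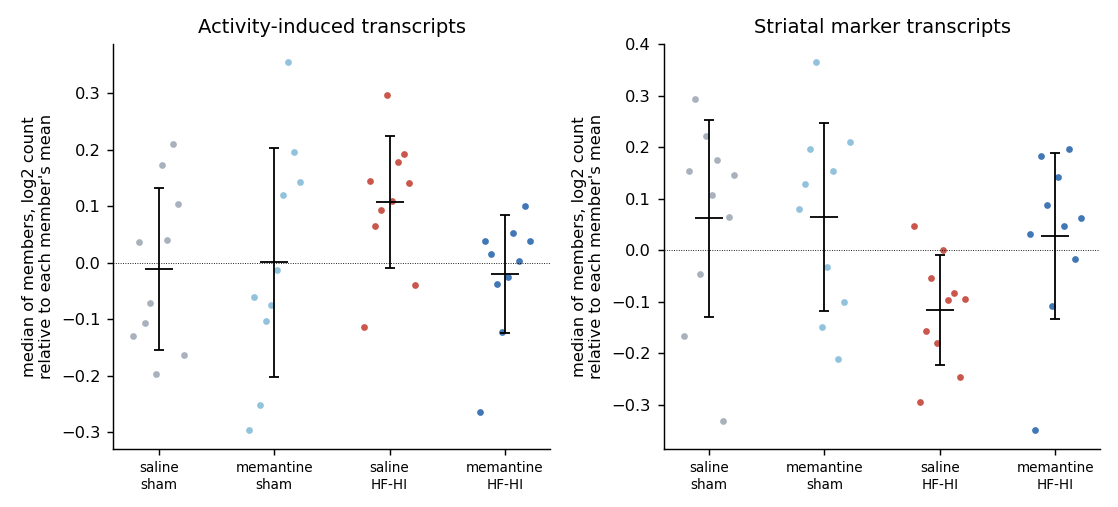
Each point is 1 library, and the y axis gives the median over the members of a list of the log2 count relative to each member's mean over the 40 libraries, with group mean and SD (n = 10) as bars. Medians ran from -0.11 to 0.30 in saline HF-HI and from -0.26 to 0.10 in memantine HF-HI for the activity-induced list, and from -0.29 to 0.05 and -0.35 to 0.20 for the striatal list.

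The target of the drug was measured next. Of 7 NMDA receptor subunit genes, 5 were in the table with 7 transcripts, 0 passed the threshold in either direction and the smallest limma p-value was 0.110. Grin2b, the subunit gene prominent at extrasynaptic sites, ran from 9960 through a median of 10122 to 10578 counts in saline HF-HI and from 9671 through 10453 to 10838 in memantine HF-HI. The mean difference was 1.39% (95% interval from -3.15% to 6.02%, limma p = 0.557). For Grin2a the difference was -1.79% (95% interval from -7.76% to 4.47%, p = 0.552), and the groups overlapped over nearly their whole range. Grin2c, a subunit gene more used outside the forebrain, averaged 651 ± 81.2 and 697 ± 64.9 (SD, n = 10 each, p = 0.158), and Grin3a 724 ± 140 and 794 ± 175 (p = 0.350). The obligatory subunit Grin1 had 3 transcripts, with p-values of 0.110, 0.326 and 0.671, and the log2 ratio of their sum was 0.02 (p = 0.684).

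AMPA receptor genes, which carry fast excitatory transmission, showed 2 differences among 18 transcripts of 9 genes, and both were in auxiliary subunits. Both were higher, where 1.52% of the table was, and 0 passed as lower, where 2.39% did. Cnih2, a cornichon that slows receptor closing, rose by 10.9%, from 731 ± 55.0 to 811 ± 56.9 (SD, n = 10 each, limma p = 0.0293, permutation p = 0.0048), and 9 of 10 memantine HF-HI libraries were above the saline HF-HI mean. Gsg1l, whose protein reduces AMPA receptor currents, rose by 14.5%, from 801 ± 78.1 to 918 ± 88.3 (limma p = 0.0437, permutation p = 0.00536). The limma call was lost without 4 of the 20 libraries, taken singly, for Cnih2 (saline HF-HI replicates 7 and 9, memantine HF-HI replicates 6 and 7) and without 9 for Gsg1l. The interaction p-values were 0.516 and 0.454. None of the 13 transcripts of the pore-forming subunits Gria1 to Gria4 passed, and the smallest of their p-values was 0.0708, for Gria1 NM_001252403.

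The wider synapse showed few differences. Of 70 postsynaptic density transcripts of 39 genes, 2 passed as lower and 1 as higher, against 2.39% and 1.52% of the table, and the median log2 ratio was 0.01. The lower ones were a transcript of Dlg3, which encodes the scaffold SAP102 (1185 to 1004 counts, p = 0.0240), and Lrfn5, an adhesion molecule (1964 to 1762, p = 0.0117), and the higher one was a transcript of Anks1b (p = 0.0400). Of 64 presynaptic transcripts of 36 genes, 2 passed as higher. GABA and interneuron transcripts numbered 28, with 14 lower, 14 higher and 0 past the threshold.

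Outside the synapse, the clock output gene Dbp, a transcription factor whose level cycles over the day, was higher with memantine. Dbp counts had a minimum of 817, a median of 1161 and a maximum of 1298 in saline HF-HI and 1142, 1325 and 1414 in memantine HF-HI, and all 10 memantine HF-HI libraries were above the saline HF-HI mean. The mean rose by 14.2% (95% interval from 4.53% to 25.9%), from 1134 ± 134 to 1295 ± 94.5 (SD, n = 10 each, limma p = 0.00424, permutation p = 0.00434). In the sham mice Dbp averaged 1006 with saline and 1388 with memantine, and the interaction p-value was 0.00563. Among the impacted mice the drug difference in Dbp was therefore smaller than among the sham mice at the unadjusted threshold.

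Few other clock transcripts passed among the impacted mice. Of 24 transcripts of 19 genes, 3 passed as higher and 0 as lower, against 1.52% and 2.39% of the table, and the median log2 ratio was -0.01, while it was 0.12 for memantine sham over saline sham. The other 2 were single forms of Rora (NM_013646) and Tef (NM_017376), whose partner transcripts were lower without passing. The sum over Tef transcripts had a log2 ratio of 0.10 (p = 0.0242), and that over Rora transcripts -0.02 (p = 0.968). Per2 averaged 1366 in saline HF-HI and 1556 in memantine HF-HI (p = 0.0832), and Per1 1446 and 1436 (p = 0.933). In the sham contrast 7 of the 24 passed the unadjusted threshold, where 7.51% of the table did. An unadjusted interaction p-value under 0.05 was found for 7 of the 24, where 3.73% of the table had one. The hour at which each cortex was taken was not given in the labels, and its part in these values was not tested.

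Among all transcripts, Rps16 had the smallest p-value. It encodes a protein of the small ribosomal subunit. Its counts ran from 813 through a median of 921 to 1055 in saline HF-HI and from 570.3 through 769 to 953 in memantine HF-HI, and 8 memantine HF-HI libraries were below the lowest saline one. The mean fell by 16.4% (95% interval from -23.9% to -9.05%), from 918 ± 76.1 to 768 ± 102 (SD, n = 10 each), with p = 0.000165 in limma, 0.933 after adjustment, and 0.00138 in the permutation test. Of 80 ribosomal protein transcripts 58 were lower, against 49.8% of all transcripts, but their median log2 ratio was -0.01. Of the 80, 2 passed as lower and 1 as higher, against 2.39% and 1.52% of the table. The lower ones were Rps16 and Rpl39 (the latter from 1136 to 1037, p = 0.00551), and the higher one was Rpl35a (1396 to 1583, p = 0.0160). Several ribosomal protein genes have near-identical processed pseudogenes, between which counting can split reads, and whether this touched these values was not tested.

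The other lower transcripts with the smallest p-values came from varied genes. Syt12, a synaptotagmin of synaptic vesicles, had counts from 745 to 874 in saline HF-HI with a median of 793 and from 646 to 756 in memantine HF-HI with a median of 734, so that 9 memantine HF-HI libraries were below every saline one. Its mean fell by 10.7% (95% interval from -16.0% to -4.94%, limma p = 0.000728, permutation p = 6e-05). Itgav, the alpha V integrin subunit, fell by 5.64% (3920 ± 129 to 3699 ± 145, p = 0.00196), and Ppme1, a methylesterase of protein phosphatase 2A, fell by 7.86% (2385 ± 172 to 2198 ± 116, p = 0.00199). Arih2, a ubiquitin ligase, fell by 6.55% (p = 0.00256). For each of these 4, all 10 memantine HF-HI libraries were below the saline HF-HI mean.

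Higher transcripts whose gene has a single RefSeq form were also small in size. Fads1, a desaturase of polyunsaturated fatty acid synthesis, rose by 7.60% (2780 ± 160 to 2991 ± 137, SD, n = 10 each, limma p = 0.00337), Nhsl2 by 8.58% (p = 0.00625) and Cdh2, which encodes N-cadherin, by 4.15% (2314 ± 39.0 to 2410 ± 69.7, p = 0.00718). Nhsl2 was above the saline HF-HI mean in all 10 memantine HF-HI libraries and the other 2 in 9. Of the gene sums, Cnot1, the scaffold of the CCR4-NOT deadenylase, rose by 7.20% (4044 ± 314 to 4335 ± 143, p = 0.00376). The sum for Pcdh7, a protocadherin, was 7368 ± 1250 and 8250 ± 340 (p = 0.00538), and that for Sugp2 1946 ± 86.2 and 2055 ± 97.9 (p = 0.00519).

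**Figure D4:**
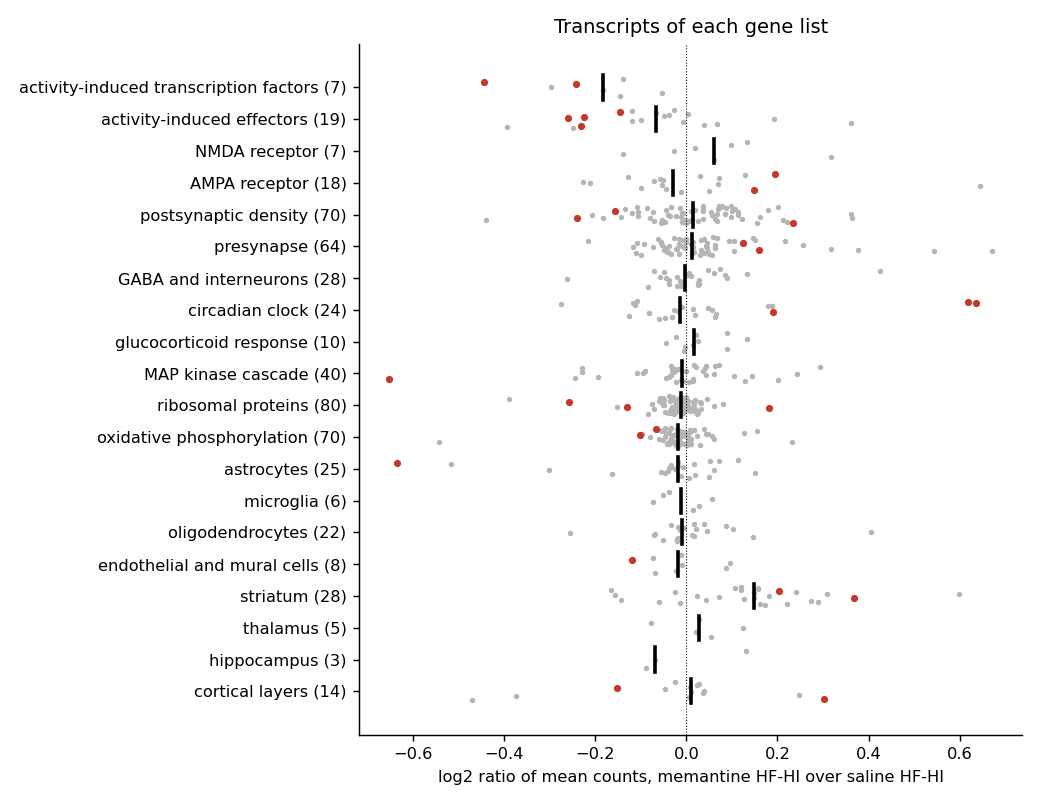
Each point is 1 transcript of a gene list, placed by the log2 ratio of its mean counts (memantine HF-HI over saline HF-HI), in red where its unadjusted limma p-value was under 0.05, with the list median as a bar and the number of transcripts in brackets. Of the 20 lists drawn, which leave out the choroid plexus and blood list with its single transcript, the activity-induced factors have the lowest median, -0.18, and the striatal markers the highest, 0.15.

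Markers of other cell types had few members past the threshold, which 2.39% of all transcripts passed as lower and 1.52% as higher. Of 25 astrocyte transcripts 1 passed, a minor form of the glutamate transporter gene Slc1a2 (699 to 449.7 counts, p = 0.0365), whose dominant form averaged 87071 and 88121 (p = 0.584). Among 6 microglial, 22 oligodendrocyte, 5 thalamic and 3 hippocampal transcripts 0 passed, and among 8 endothelial and mural transcripts only Slco1a4 did, as lower (p = 0.0446). Of 14 cortical layer transcripts, Lamp5 was lower (2036 to 1831, p = 0.0162) and one form of Bcl11b was higher, while the sum of both Bcl11b forms had p = 0.0863. The choroid plexus marker Ttr ran from 156 to 10461 counts in saline HF-HI and from 172 to 15752 in memantine HF-HI, and the means of 2862 and 4074 had p = 0.661.

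The MAP kinase cascade, glucocorticoid-responsive genes and oxidative phosphorylation were described as further lists, to be read against the 2.39% of all transcripts that passed as lower and the 1.52% that passed as higher. Of 40 MAP kinase transcripts 1 passed, the Map2k4 form NM_009157 (805 to 513 counts, p = 0.0127), and the other Map2k4 form went from 2159 to 2481 (p = 0.0639). Of 10 glucocorticoid-responsive transcripts 0 passed, with a median log2 ratio of 0.02. Of 70 oxidative phosphorylation transcripts 47 were lower, against 49.8% of all transcripts, with a median of -0.02, and the complex I subunit Ndufb4 (p = 0.0456) and the complex III subunit Uqcrc1 (p = 0.0400) passed as lower.

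Single transcripts with large differences came from genes with several transcript forms. Of the 267 transcripts past the unadjusted threshold, 83 (31.1%) had another form of the gene in the table, against 24.5% of all transcripts. For 75 of these 83 the sum over the gene did not pass, and for 23 it had the opposite sign. All 28 transcripts with a log2 ratio beyond 0.5 in size belonged to genes with more than 1 RefSeq form. So did 61.4% of the 267 and 57.7% of all transcripts. Among the 103 from genes with 1 form the largest size was 0.44. The median SD of log2 counts within saline HF-HI was 0.33 for transcripts of genes with several forms in the table and 0.09 for the rest.

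Crmp1, which encodes a collapsin response mediator of axon growth, had one form past the threshold in each direction. NM_007765 ran from 776 through a median of 1028 to 1213 counts in saline HF-HI and from 312 through 642 to 1011 in memantine HF-HI, with 7 memantine HF-HI libraries below the lowest saline one (limma p = 0.000273). NM_001136058 ran from 398 through 662 to 979 and from 558 through 973 to 1404 (p = 0.00312). The share of NM_007765 in the sum of both was 59.5% ± 9.24 in saline HF-HI and 38.7% ± 15.3 in memantine HF-HI (SD, n = 10 each), beside 53.6% ± 14.6 in saline sham and 56.4% ± 10.97 in memantine sham. The sum itself was 1694 ± 93.5 and 1668 ± 72.2 (p = 0.594).

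Pdcd4, an inhibitor of translation initiation, repeated the pattern. NM_001168491 averaged 802 ± 89.5 and 1015 ± 197 counts (SD, n = 10 each, p = 0.00228), NM_001168492 averaged 759 ± 116 and 591 ± 146 (p = 0.0107), and the log2 ratio of the sum was 0.04 (p = 0.240). Both directions were past the threshold within 1 gene in 15 of the 718 genes with several forms in the table. Among them were Agfg1, Cdc42bpa, Kif3a, Syt7, Tcf20 and Tcf4. Reads are shared out between the forms of a gene, so the values of its forms are not independent. How far this made the opposite directions was not tested. Cnot1 held 1 of the 8 transcripts for which the form and the sum passed together. Its form NM_178078 averaged 2485 ± 608 and 3370 ± 667 (p = 0.00280), the other form 1559 ± 541 and 965 ± 651 (p = 0.0607), and the sum was higher as given above.

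The largest differences varied most between libraries of a group. Cadm2 NM_001347247 ran from 53.4 through a median of 1492 to 6168 counts in saline HF-HI and from 42.6 through 139 to 2612 in memantine HF-HI (p = 0.0364, permutation p = 0.0546), while the sum of the 3 Cadm2 forms had p = 0.922. Cdc42bpa NM_001033285 averaged 1302 ± 960 and 3245 ± 3146 and NM_001346804 averaged 5680 ± 2889 and 3410 ± 2469 (SD, n = 10 each), and the sum of its 3 forms had p = 0.802. Cep250 NM_001130000 was at 0 in 3 saline HF-HI libraries and at 0.94 in replicate 5, and the rest ran from 587 to 807. It was at 316 to 1193 in memantine HF-HI, and at 0 in memantine sham replicates 1 and 9. Tcf20 NM_013836 was at 0 in 2 memantine HF-HI libraries. Sirpa NM_001177647 averaged 510.1 ± 435 and 1097 ± 663 (p = 0.0383), with p = 0.766 for the sum. Mef2a NM_001033713, Slc7a1, Pip5k1a and Ulk1 had 1 form each in the table of several in RefSeq, with log2 ratios of -0.60, -0.65, -0.56 and 0.48. The Mef2a form ran from 2650 through a median of 3457 to 3678 in saline HF-HI. In memantine HF-HI it ran from 306 through 3013 to 3629, so its ratio came from a part of the libraries. The Picalm form NM_001252521 had a log2 ratio of 0.17 beside 0.02 for the sum of 4 forms.

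**Figure D5:**
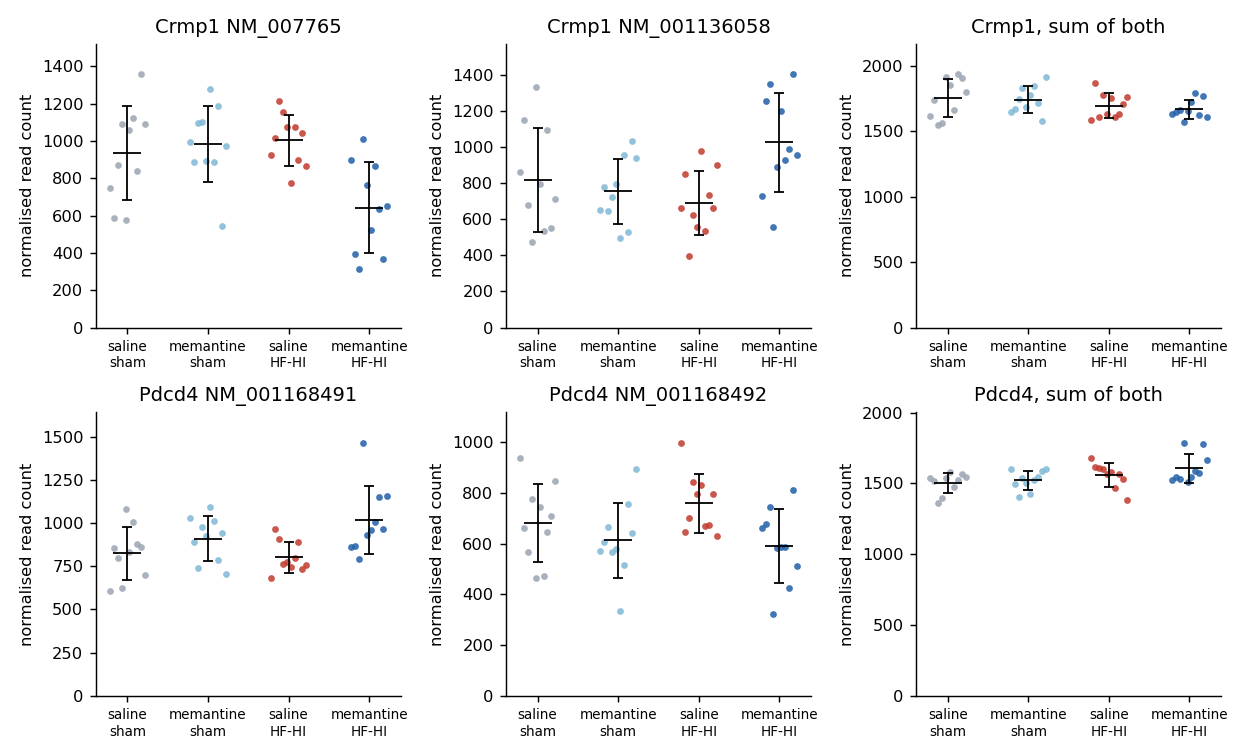
Normalised read counts of both Crmp1 transcripts and both Pdcd4 transcripts, and their sums, are plotted for each library (points) in the 4 groups with mean and SD as bars (n = 10 per group). The transcripts of a gene differ between the HF-HI groups in opposite directions, and the sums overlap, with p = 0.594 for Crmp1 and 0.240 for Pdcd4.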

How the data were processed

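Cortical RNA of 40 mice was sequenced in 4 groups of 10. Per the paper's methods, libraries were stranded and depleted of ribosomal RNA, paired reads were aligned to mm10 with STAR and counted per RefSeq transcript with eXpress, and DESeq2 scaled and transformed the counts. The submitters' processing notes name HISAT2 and StringTie instead, without versions, and the files do not settle which was used. The log2 values deposited by the authors are variance-stabilised, compressed at low counts, and hold abundant transcripts only. The transformation was inverted (floor 10.36 for a count of 0), and all values under 5000 then were whole multiples of a step per library within 0.05. The samples were grouped from the treatment labels.

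The deposited values were fitted with limma 3.58.1 in R 4.3.3 (lmFit, eBayes with trend) with 1 coefficient per treatment group over the 40 libraries. Transcripts passed at an unadjusted p-value under 0.05 or a Benjamini-Hochberg adjusted one under 0.1. Gene sums were fitted as log2(summed count + 1). Log2 ratios and percentages are of mean normalised counts, and 95% intervals come from the same fit on log2(count + 1). Permutation tests were two-sided with 100000 resamples over the 20 HF-HI libraries. The fit was tested on simulated data. The rule named the 10 higher and 10 lower transcripts with the smallest p-values, the 3 largest rises and falls, 5 gene sums in each direction, NMDA receptor genes, 6 genes described before, and members past the threshold of the activity-induced, AMPA receptor, NMDA receptor and clock lists, with the other forms of these genes; members of the other lists and those that did not pass were named after their values were seen. The members of the comparison, the lists and the rule were chosen with earlier results of these data known. No set test was run. Some members of the synaptic lists are not reported here by name.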

Additional observations from a re-analysis of the deposited data

Results flagged for a closer look

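Among the named transcripts, 122 groups of 10 HF-HI libraries were examined for 1 library apart from its group, by its gap to the nearest other library over the range of the group, and 17 were beyond the 95% critical value of 0.466. Chance flags about 1 in 20 groups, and transcripts of the same libraries are not independent.

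Most of these were activity-induced transcripts in the library numbered 1 of either HF-HI group. Saline HF-HI replicate 1 was lowest for Nr4a1 (ratio 0.795, 370 counts against a next lowest of 1151), both Arc transcripts (NM_018790 0.736 and NM_001276684 0.631), Egr1 (0.603), Dusp6 (0.548, 942 against 1325) and Junb (0.466). Memantine HF-HI replicate 1 was lowest for Arc NM_018790 (0.622, 930 against 2126), Egr1 (0.541) and Nr4a1 (0.507). These are separate mice, and the shared number is not known to tie them. With both libraries left out, Nr4a1 and Dusp6 still passed the unadjusted threshold and Junb passed as well, while Egr1 and both Arc transcripts did not.

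Saline HF-HI replicate 5 was highest for Klf10 (0.598) and Ier5 (0.515). The remaining ones were spread over libraries. They were Dbp in saline HF-HI replicate 8 (lowest, 0.532), Cdh2 in saline HF-HI replicate 6 (lowest, 0.506), Mef2a NM_001033713 in saline HF-HI replicate 4 (lowest, 0.471), Tef NM_153484 in saline HF-HI replicate 3 (lowest, 0.634), Cnot1 NM_178078 in memantine HF-HI replicate 9 (lowest, 0.492) and Cadm2 NM_001347247 in memantine HF-HI replicate 2 (highest, 0.737, 2612 counts against a next highest of 307).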

How the results depend on the processing

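At a threshold of 0.01 the counts were 42 transcripts, 35 gene sums and 40 interactions. Leaving out 1 HF-HI library at a time gave 215 to 326 transcripts, 180 to 280 gene sums and 208 to 365 interactions at the unadjusted threshold (lowest without saline HF-HI replicate 9 for the first 2 counts and memantine HF-HI replicate 6 for the third, highest without memantine HF-HI replicate 1 and saline HF-HI replicate 1), and 0 transcripts and 0 interactions at the adjusted one. Gene sums there numbered 0 to 1, the 1 being Rps16 without memantine HF-HI replicate 1 (adjusted limma p = 0.0796, up to 0.999 over its alternatives). Lower activity-induced transcripts numbered 4 (without memantine HF-HI replicate 1) to 8 (without saline HF-HI replicate 1), and 3 with the striatal covariate. Higher striatal transcripts numbered 1 to 11, 7 in the 20 HF-HI libraries alone, 5 with weighted libraries, 0 with the striatal covariate, and 7 without both libraries numbered 1, added after seeing the data. Gene sums reversed the sign for Cdc42bpa NM_001033285 (-0.00474), Cnot1 NM_001205226 (0.104), Crmp1 NM_001136058 (-0.0215), Pdcd4 NM_001168492 (0.0412), Sirpa NM_001177647 (-0.0117), Tcf20 NM_013836 (0.0131) and Tef NM_153484 (0.0954). Each sum adds the other forms of its gene, and each of these genes had another form that differed in the opposite direction. Why the forms differed was not tested. Of the other values of the named transcripts under alternatives, 1868 kept direction and side of the threshold, 104 lost it and 18 gained it. The smallest counts carry the largest counting error.

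Libraries of the HF-HI groups that share a number showed correlations of residuals from -0.110 to 0.160, with 1 of 10 pairs over 0.1. Of 10 memantine libraries 2 were closest to their own number. These correlations over all transcripts showed no general pairing by number. They do not test whether libraries of equal number shared a batch or cage, which the labels did not give. The sham groups, in which some activity-induced counts varied with replicate number, were not part of this check. With the replicate block 278 transcripts, 233 gene sums and 265 interactions passed the unadjusted threshold and 0 the adjusted one.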
